A study of Mus musculus with 6 samples.

Results

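Lipogenic genes of the SREBP1 programme were followed in livers of acute ethanol-exposed and control mice. The set holds 10 genes, chosen by name from the lipogenic pathway: Srebf1, Mlxipl, Fasn, Acaca, Acacb, Acly, Scd1, Elovl6, Me1 and Thrsp. All 10 were found by symbol among the 28880 genes of the table, and all 10 were among the 16717 genes that were abundant enough to be tested. There was 1 liver RNA library per mouse, for 3 mice with acute ethanol exposure and 3 control mice. All were male wild-type C57BL/6J mice of 6 to 8 weeks. Mice of the ethanol group went without food for 12 h and then received 6 g/kg of 50% ethanol once by mouth, with the liver removed 24 h afterwards. For control mice the labels state only that no ethanol was given. Neither a fast nor a vehicle gavage is stated for them, and a return of food after the gavage is stated for no group. Ethanol, the fast and any feeding after it therefore cannot be told apart in any value given here.

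Srebf1 encodes SREBP1, a transcription factor made as a membrane-bound precursor that insulin and liver X receptors induce, and that drives the genes of fatty acid synthesis once it is cleaved and reaches the nucleus. Mlxipl encodes ChREBP, which responds to sugar metabolites and acts on many of the same genes. Their shared targets turn citrate into acetyl-CoA, acetyl-CoA into malonyl-CoA and palmitate, and palmitate into longer and unsaturated fatty acids, and in liver this programme is known to be high after feeding and low in fasting. RNA levels do not report the cleavage of SREBP1 or the activity of these enzymes.

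Between 60514417 and 74210869 reads per library were counted on genes. Levels are given as CPM, counts scaled to the library size after edgeR's TMM scaling. All p-values are two-sided. Unless another test is named, they come from the quasi-likelihood test of edgeR, adjusted by Benjamini and Hochberg's method over all genes tested. A call of upregulated or downregulated needed a log2 fold change past 1 or -1 and an adjusted p below 0.05. The TMM factors were 0.768 to 0.836 in ethanol libraries and 1.26 to 1.27 in control libraries, and over all genes the median log2 fold change was -0.04 with them and -0.71 with library size alone. Fold changes are therefore relative to this scaling. Ethanol replicate 3 stood apart within its group, being the highest of the 3 ethanol libraries in 40.5% of all genes tested and the lowest in 39.1%. Values without it are given for the genes of the set whose call it changes, and for some of the pathway genes.

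Within the lipogenic programme, Thrsp was upregulated and Mlxipl, Acacb and Acly were downregulated in acute ethanol-exposed mice. The remaining 6 genes were not called, and Srebf1 itself differed more between ethanol-exposed mice than any other gene of the set. The 1 upregulated gene compares with 10.4% of all genes tested that were upregulated, and the 3 downregulated genes with 13.8%. At an adjusted p under 0.05 alone, 1 gene of the set was higher, where 21.5% of all genes were, and 5 were lower, where 21.5% of all genes were, Elovl6 and Me1 being added. All ethanol values lay above all control values for 1 gene (28.0% of all genes tested) and below them for 6 genes (31.0%), while Srebf1, Fasn and Scd1 overlapped. The median log2 fold change over the 10 genes was -0.65, beside -0.04 over all genes. With library size alone the same test gave 1 upregulated and 6 downregulated genes, Acaca, Elovl6 and Me1 joining the lower side at log2 fold changes of -1.28, -1.42 and -1.36. Under that scaling 5.06% of all genes were upregulated and 32.2% downregulated. With the trend of each library with transcript length removed it gave 1 and 1. Under that setting 1888 of all genes were upregulated and 1946 downregulated, against 1738 and 2301 in the main test.

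**Figure D1:**
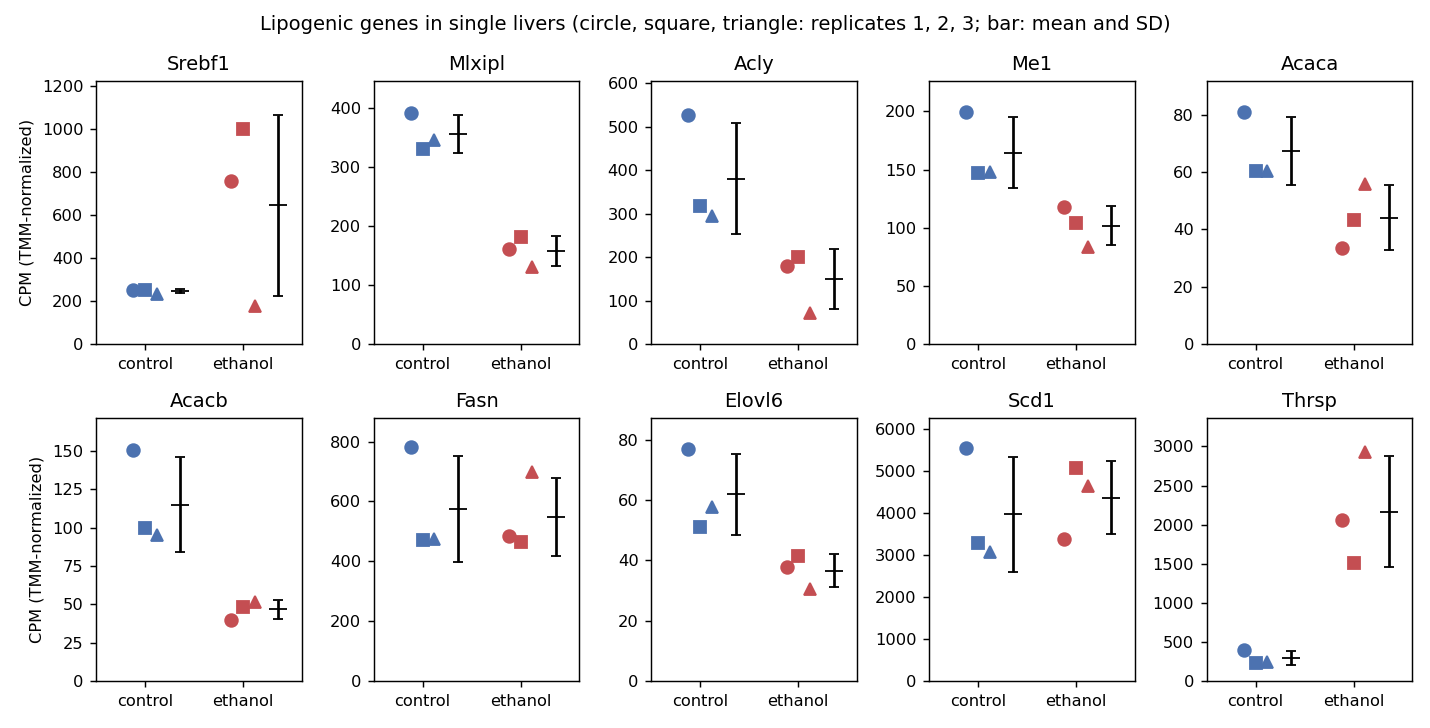
CPM after TMM scaling of the 10 lipogenic genes in each liver, with control mice in blue, ethanol-exposed mice in red, and the mean and SD of 3 libraries as a black bar beside each group. Srebf1 is spread from 179 to 999.6 CPM in ethanol-exposed mice, Thrsp is above every control library, and the blue circle, control replicate 1, is the highest control in every panel.

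Sequence upstream of the start sites is shown for Mlxipl, which was downregulated and has 2 start sites in RefSeq, and for Fasn, which was not called. RefSeq start windows (GRCm38.p6, 250 bases before to 50 after the start) were found for 9 of the 10 genes, all but Scd1, in 13 windows. They were searched on both strands for TCACNCCAC, a form of the sterol regulatory element bound by SREBP, and CACGTG, an E-box. CCAAT (bound by NF-Y) and GGGCGG (a GC box, bound by Sp1) were searched for too. TCACNCCAC was found in 1 of the 13 windows, at the second start of Mlxipl, and in 1.24% of the 32544 different windows of this length over all genes. CACGTG was found in 1, at the first start of Mlxipl, against 7.17% of all windows. CCAAT was found in 8 windows of 7 genes (37.4% of all windows) and GGGCGG in 5 windows of 4 genes (35.9%). The 250 bases before the start are printed 5′ to 3′ on the strand of the gene. Capitals mark CCAAT on either strand (ATTGG where it lies on the other strand), TCACNCCAC and CACGTG.
Mlxipl first start, chr5:135089640-135089889, plus strand: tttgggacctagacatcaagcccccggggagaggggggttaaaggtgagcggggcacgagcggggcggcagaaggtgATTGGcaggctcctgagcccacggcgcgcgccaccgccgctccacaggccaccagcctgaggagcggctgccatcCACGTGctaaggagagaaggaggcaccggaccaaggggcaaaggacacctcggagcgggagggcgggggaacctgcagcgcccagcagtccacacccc
Mlxipl second start, chr5:135106641-135106890, plus strand: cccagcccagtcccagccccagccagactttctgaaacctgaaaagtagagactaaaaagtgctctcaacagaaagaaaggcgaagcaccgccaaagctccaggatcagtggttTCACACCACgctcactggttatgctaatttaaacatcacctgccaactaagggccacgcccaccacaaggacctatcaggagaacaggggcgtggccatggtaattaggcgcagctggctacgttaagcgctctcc
Fasn start, chr11:120824548-120824797, minus strand: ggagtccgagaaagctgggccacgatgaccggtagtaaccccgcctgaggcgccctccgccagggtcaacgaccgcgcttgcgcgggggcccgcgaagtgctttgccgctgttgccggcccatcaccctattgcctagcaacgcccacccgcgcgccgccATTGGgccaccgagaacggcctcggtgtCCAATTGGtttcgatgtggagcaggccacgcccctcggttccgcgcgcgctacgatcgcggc

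Before the first start of Mlxipl, the E-box lies at -98 and a CCAAT match on the other strand at -173, and before the second start TCACNCCAC lies at -136. Fasn has CCAAT matches at -90, -62 and -59, of which the last 2 overlap. Thrsp has CCAAT matches at -79 and -52 of its RefSeq start, which lies 180 bases inside the gene as GENCODE gives it. The RefSeq starts of Acaca and Acacb lie 65766 and 18983 bases inside the GENCODE genes, as do the second start of Mlxipl (17001 bases), the second and the third of Srebf1 and the second of Me1, so these windows need not be the promoter in use in liver. Positions are those of the first matching base, counted back from the start site. Genes with a CCAAT match were found among those that were upregulated, downregulated and not called. These are matches of letters only, and binding was not measured. Looser forms of these motifs and sites outside the windows were not searched for. A gene without a match may therefore still hold such a site.

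Srebf1 (ENSMUSG00000020538, GENCODE position chr11:60199089-60222581 of GRCm38, minus strand) stood at 759, 999.6 and 179 CPM in ethanol replicates 1 to 3 and at 253, 252 and 234 CPM in control replicates 1 to 3. Ethanol replicates 1 and 2 lay far above the control mice and ethanol replicate 3 below all of them. Relative to the control mean these were 3.08, 4.06 and 0.728 times the level. The highest ethanol library held 5.57 times the lowest, against 1.08 times in control mice. The median of this ratio over 12295 genes with a mean of at least 1 CPM was 1.42 in ethanol-exposed and 1.18 in control mice. The log2 fold change was 1.39 (SE 0.531, 95% interval 0.14 to 2.64, edgeR, adjusted p = 0.0705), and Srebf1 was not called. Without ethanol replicate 3 it was 1.85 (SE 0.123, edgeR, adjusted p = 2.63e-05) and was called. With library size alone it was 0.75 (edgeR, adjusted p = 0.274), and with limma on log2(FPKM + 1) 0.39 (limma, adjusted p = 0.598). Rai1, which overlaps Srebf1 on the opposite strand, held at most 10.7% of the counts of Srebf1 in any library, and the sources do not say whether counting used the strand. The deposited counts are per gene, so the isoforms SREBP1a and SREBP1c cannot be told apart.

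Mlxipl (ENSMUSG00000005373, chr5:135089890-135138382, plus strand) was at 162, 182 and 131 CPM in ethanol-exposed mice and at 392, 329.9 and 346 CPM in control mice. Every ethanol-exposed mouse lay below every control mouse. It was downregulated with a log2 fold change of -1.17 (SE 0.149, edgeR, adjusted p = 0.00122). With the length trend removed the log2 fold change was -0.99, just short of the fold threshold, while its adjusted p was 0.00259.

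Acly, ATP citrate lyase, which releases acetyl-CoA from citrate in the cytosol, and Me1, cytosolic malic enzyme, which makes NADPH, supply the pathway. Acly (ENSMUSG00000020917, chr11:100476353-100528000, minus strand) was at 179, 201 and 72.2 CPM in ethanol-exposed mice and at 528, 318 and 296 CPM in control mice. The groups did not overlap, with ethanol replicate 3 lowest and control replicate 1 highest. Acly was downregulated at a log2 fold change of -1.33 (SE 0.400, edgeR, adjusted p = 0.0319). The call was lost without any 1 of ethanol replicates 1 and 3 and control replicates 1, 2 and 3. Without ethanol replicate 3 the log2 fold change was -0.99 (edgeR, adjusted p = 0.0104), and without control replicate 1 it was -1.03 (edgeR, adjusted p = 0.112). Me1 (ENSMUSG00000032418, chr9:86581371-86695953, minus strand) was at 118, 104 and 83.9 CPM in ethanol-exposed mice against 199.8, 147 and 148 CPM in control mice. Its ethanol values all lay below the control values. The log2 fold change of -0.69 (SE 0.177, edgeR, adjusted p = 0.0176) did not reach the fold threshold, and its adjusted p was 0.0567 without control replicate 1.

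The acetyl-CoA carboxylases make malonyl-CoA, Acaca encoding the cytosolic enzyme that feeds fatty acid synthesis and Acacb the enzyme at the mitochondrial surface whose malonyl-CoA restrains fatty acid entry through carnitine palmitoyltransferase. Acacb (ENSMUSG00000042010, chr5:114146535-114250761, plus strand) was at 40.1, 48.2 and 51.7 CPM in ethanol-exposed mice and at 151, 99.6 and 95.2 CPM in control mice. All ethanol libraries were below all control libraries. It was downregulated with a log2 fold change of -1.30 (SE 0.202, edgeR, adjusted p = 0.0025), and it was called under all 18 alternative settings of scaling, filter, test and left-out library. Acaca (ENSMUSG00000020532, chr11:84129672-84401651, plus strand) was at 33.4, 43.25 and 55.7 CPM against 81.0, 60.3 and 60.5 CPM. Here too the groups did not overlap, although ethanol replicate 3 came close to the lower control mice. Acaca was not called, at a log2 fold change of -0.61 (SE 0.210, 95% interval -1.10 to -0.12, edgeR, adjusted p = 0.0514). Gm11437, on the opposite strand, overlaps Acaca and held at most 7.09% of its counts.

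Fasn, fatty acid synthase, builds palmitate from malonyl-CoA and NADPH. Fasn (ENSMUSG00000025153, chr11:120805846-120824547, minus strand) was at 484, 464 and 698 CPM in ethanol-exposed mice and at 781, 471 and 474 CPM in control mice. The groups overlapped, with ethanol replicate 3 and control replicate 1 high and the other 4 libraries close together. Fasn had a log2 fold change of -0.07 (SE 0.251, 95% interval -0.66 to 0.52, edgeR, adjusted p = 0.843), so the interval excludes a change past the fold threshold in either direction under this scaling. Its sign depended on the setting: it was 0.21 without control replicate 1 and -0.74 with library size alone, where the adjusted p was 0.0346.

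Elovl6 lengthens palmitate to stearate and Scd1 introduces the double bond that turns stearate into oleate. Elovl6 (ENSMUSG00000041220, chr3:129532355-129638495, plus strand) was at 37.8, 41.5 and 30.5 CPM in ethanol-exposed mice and at 77.0, 51.0 and 57.7 CPM in control mice. The groups did not overlap. Its log2 fold change of -0.76 (SE 0.187, edgeR, adjusted p = 0.0155) was short of the fold threshold. Gm35986, on the opposite strand, held at most 5.28% of the counts of Elovl6. Scd1 (ENSMUSG00000037071, chr19:44394455-44407879, minus strand) was at 3395, 5076 and 4648 CPM in ethanol-exposed mice and at 5560, 3297 and 3081 CPM in control mice. Control replicate 1 was above every ethanol-exposed mouse and the other 2 control mice below. Scd1 had a log2 fold change of 0.14 (SE 0.262, 95% interval -0.48 to 0.75, edgeR, adjusted p = 0.699), which became -0.53 with library size alone.

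Thrsp encodes Spot 14, a small protein induced by thyroid hormone and carbohydrate feeding that is associated with lipogenesis. Thrsp (ENSMUSG00000035686, chr7:97412938-97417730, minus strand) was at 2062, 1511 and 2925 CPM in ethanol-exposed mice and at 391.5, 230.5 and 247 CPM in control mice. The lowest ethanol-exposed mouse was far above the highest control mouse, and ethanol replicate 3, lowest for Srebf1, was the highest for Thrsp. The group means were 2166 ± 713 and 289.7 ± 88.6 CPM (SD, n = 3 libraries each), a ratio of 7.48. The log2 fold change was 2.90 (SE 0.312, 95% interval 2.17 to 3.64, edgeR, adjusted p = 0.00064). Across the 18 alternatives it lay between 2.21 and 3.18 and was always called. Mid1ip1, which encodes its paralogue and partner in the regulation of acetyl-CoA carboxylase, had a log2 fold change of -0.57 (SE 0.150, edgeR, adjusted p = 0.0201). It was called downregulated with library size alone, at -1.24 (edgeR, adjusted p = 0.000483), and with limma on log2(FPKM + 1), at -1.18 (limma, adjusted p = 0.000452).

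**Figure D2:**
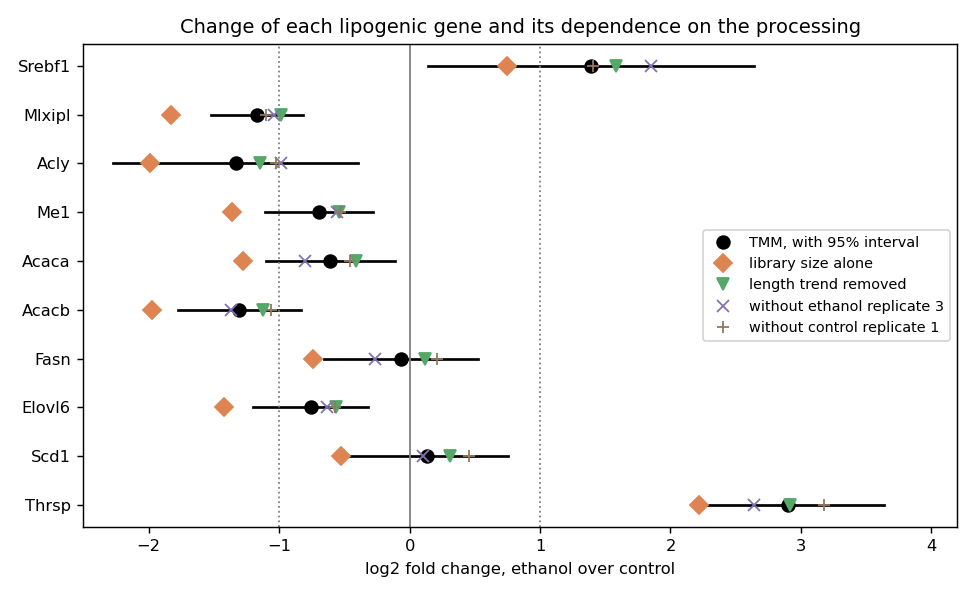
The log2 fold change (ethanol over control) of each lipogenic gene, with black dots for the TMM-scaled test, bars for its 95% interval from 3 libraries per group, coloured marks for 4 alternatives and dotted lines at the fold threshold. Library size alone moves every gene to the left, Thrsp stays beyond 1 under each setting shown, and Srebf1 has the widest interval.

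Control replicate 1 was the highest control library in 10 of 10 genes, where it was the highest in 41.0% of all genes tested. Relative to the mean of control replicates 2 and 3 it was 1.04 times as high for Srebf1 and 1.16 times for Mlxipl. For the other 8 genes it was from 1.34 times (Acaca) to 1.74 times (Scd1). Srebf1 was nearly level between control mice, its highest library holding 1.08 times the lowest. Mlxipl, at 1.19 times, lay near the median of 1.18 over genes with a mean of at least 1 CPM. A difference between the transcription factors and the other 8 genes was not tested. Without control replicate 1 the downregulated genes were Mlxipl and Acacb, and Thrsp was still upregulated.

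Levels per transcript length were compared on the deposited FPKM, which is scaled to library size without TMM factors. In control mice Scd1 was the most abundant at 960.4 ± 334 FPKM (SD, n = 3), followed by Thrsp at 156 ± 48.3, and their ranges were apart from each other and from the next gene. Acly (85.1), Mlxipl (75.9), Fasn (62.0), Srebf1 (51.6) and Me1 (50.5) followed, each overlapping its neighbour in the order. Acacb (14.1) and Elovl6 (11.4) overlapped each other, and Acaca (4.65) was lowest and apart. In ethanol-exposed mice Thrsp, at 727 ± 213 FPKM, and Scd1, at 665 ± 154, overlapped at the top. Srebf1 (86.3 ± 58.7) overlapped Fasn (37.0), and Acly (21.4), Mlxipl (21.3) and Me1 (19.7) did not differ beyond their spread. Elovl6 (4.23), Acacb (3.59) and Acaca (1.91) were lowest, as in control mice, with Elovl6 and Acacb overlapping. The 10 genes took from 0.565% to 0.725% of all counts in the ethanol group and from 0.634% to 1.06% in the control group. Scd1 and Thrsp were the most abundant genes of the set, and neither was downregulated. Without them the set summed to 121 to 259 FPKM in the ethanol group and 311 to 439 in the control group. These ranges did not overlap, but this choice left out the only upregulated gene. In TMM-scaled CPM the same 8 genes summed to 1303 to 2084 in the ethanol group and 1712 to 2462 in the control group, which overlapped, as did the summed FPKM of all 10 genes, at 1393 to 1761 and 1185 to 1996.

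Ratios between genes of the set within a library do not depend on the scaling between libraries. The ratio of Thrsp to Fasn in FPKM was 21.3, 16.3 and 20.95 in ethanol-exposed mice and 2.51, 2.45 and 2.61 in control mice, a log2 difference of 2.94. Control mice were nearly equal in this ratio, although Thrsp and Fasn each varied between them. The ratio of Srebf1 to Mlxipl was 4.62, 5.39 and 1.34 against 0.633, 0.751 and 0.665, a log2 difference of 2.24. Ethanol replicate 3, the low library for Srebf1, was still above every control mouse on this ratio. The ratio of Acaca to Acacb was 0.470, 0.506 and 0.608 against 0.303, 0.342 and 0.359, a log2 difference of 0.65. Me1 to Acly differed by 0.73 and Elovl6 to Fasn by -0.70 on the log2 scale, again with no overlap of the groups. Without ethanol replicate 3 these differences were 0.40 and -0.38. For these 5 ratios the exact permutation test gave p = 0.1, the smallest that 3 against 3 libraries allow, and 0.12 after adjustment over the 6 ratios computed, which were chosen with earlier results of these data known. Scd1 to Fasn was 15.7, 24.5 and 14.9 against 15.9, 15.7 and 14.6, with overlapping groups and a log2 difference of 0.22 (exact permutation test, p = 0.5, adjusted 0.5).

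**Figure D3:**
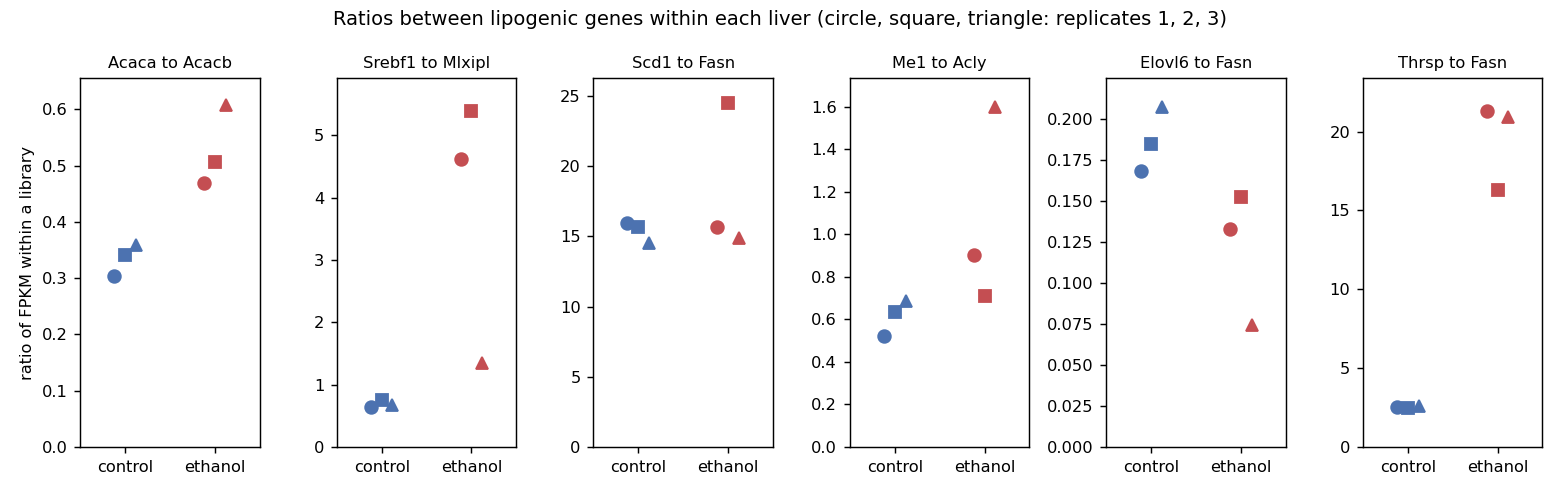
Ratio of deposited FPKM between 6 pairs of lipogenic genes within each liver, with control mice in blue and ethanol-exposed mice in red, each panel on its own linear axis from 0. The groups are apart in 5 panels and overlap for Scd1 to Fasn.

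The machinery that controls SREBP1 was described through 15 further regulators, of which 2 were upregulated and 0 downregulated, beside 10.4% and 13.8% of all genes. The counts with library size alone were 0 and 2 (Nr1h3 and Mbtps1), beside 5.06% and 32.2% of all genes. Ppargc1b, a coactivator of SREBP1, was at 9.99, 8.55 and 2.03 CPM in ethanol-exposed mice and at 2.06, 1.36 and 1.18 CPM in control mice, with ethanol replicate 3 inside the control range (log2 fold change 2.16, SE 0.568, edgeR, adjusted p = 0.0197). Mlxip, which encodes a relative of ChREBP, had a log2 fold change of 1.04 (SE 0.134, edgeR, adjusted p = 0.00125) and no overlap. Ppargc1b lost its call without ethanol replicate 1 or 2 or control replicate 2 or 3 (adjusted p up to 0.0796), and Mlxip without ethanol replicate 2, where its log2 fold change was 0.95. Mlxip also lost it with upper quartile factors (0.95), Ppargc1b with limma-voom (limma, adjusted p = 0.0508), and both with library size alone (edgeR, adjusted p = 0.0556 for Ppargc1b and 0.069 for Mlxip) and with limma on log2 FPKM. Insig1, which holds the SREBP precursor in the endoplasmic reticulum and is itself an SREBP target, was at 704, 644 and 75.2 CPM in ethanol-exposed mice and at 360.3, 345 and 330.1 CPM in control mice. It was not called (log2 fold change 0.46, SE 0.670, edgeR, adjusted p = 0.605) and was chosen here after its values were seen, for the likeness to Srebf1: ethanol replicates 1 and 2 above, and ethanol replicate 3 below, all control mice. Insig2 was above the control range in all 3 ethanol-exposed mice (log2 fold change 0.85, SE 0.180, edgeR, adjusted p = 0.00875). Nr1h3, the liver X receptor that induces Srebf1, was below it in all 3 (log2 fold change -0.88, SE 0.208, edgeR, adjusted p = 0.0132). Neither passed the fold threshold with TMM scaling. Nr1h3 was downregulated with library size alone, at -1.54 (edgeR, adjusted p = 0.00137), where Insig2 was at 0.17 (edgeR, adjusted p = 0.421). Nr1h3 was also called with limma on log2(FPKM + 1), at -1.51 (limma, adjusted p = 0.00118), and without ethanol replicate 2, at -1.07 (edgeR, adjusted p = 0.0108). Scap, the escort of SREBP, had a log2 fold change of -0.31 (SE 0.227, edgeR, adjusted p = 0.308).

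Of 11 other genes of fatty acid synthesis, 0 were upregulated and 2 downregulated, both of which activate short carbon units for the pathway. These shares stand beside the same 10.4% and 13.8% of all genes, and the counts were 0 and 5 with library size alone (5.06% and 32.2% of all genes) and 1 and 2 without ethanol replicate 3. Acss2, which makes acetyl-CoA from acetate, the product of ethanol oxidation, was at 85.5, 78.6 and 58.0 CPM in ethanol-exposed mice and at 393, 245 and 241 CPM in control mice. This was a log2 fold change of -1.98 (SE 0.242, edgeR, adjusted p = 0.00102). Aacs, which activates acetoacetate, had a log2 fold change of -1.51 (SE 0.407, edgeR, adjusted p = 0.0219), and lost the call without ethanol replicate 1 (adjusted p = 0.060) or control replicate 1 (adjusted p = 0.0803). Of 6 genes that supply NADPH besides Me1, 1 was downregulated, G6pdx, the entry enzyme of the pentose phosphate pathway (log2 fold change -1.36, SE 0.235, edgeR, adjusted p = 0.00385). Of the 6, 3 were downregulated with library size alone.

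Of 8 glucose-responsive genes that ChREBP is known to act on, 2 were upregulated and 0 downregulated, beside 10.4% and 13.8% of all genes. With library size alone 1 was upregulated and 3 downregulated, beside 5.06% and 32.2%. Khk, ketohexokinase, had a log2 fold change of 1.30 (SE 0.198, edgeR, adjusted p = 0.00233). Txnip, which encodes a thioredoxin-interacting protein, was at 290.4, 334 and 106 CPM against 59.2, 67.3 and 74.5 CPM (log2 fold change 1.86, SE 0.391, edgeR, adjusted p = 0.0083). Khk lost the call with library size alone, where its log2 fold change was 0.63, and Txnip lost it with limma on log2(FPKM + 1), at 1.01 (limma, adjusted p = 0.0775). Pklr, liver pyruvate kinase, had a log2 fold change of -0.73 (SE 0.341, edgeR, adjusted p = 0.123).

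Of 5 genes that assemble fatty acids into glycerolipids, 1 was upregulated and 0 downregulated, beside 10.4% and 13.8% of all genes. The counts were 1 and 2 with library size alone, beside 5.06% and 32.2%, and 2 and 0 without ethanol replicate 3. Lpin1, a phosphatidate phosphatase that also coactivates transcription in fasting, was at 1338, 907 and 606 CPM in ethanol-exposed mice and at 54.7, 39.7 and 39.7 CPM in control mice (log2 fold change 4.41, SE 0.329, edgeR, adjusted p = 0.000187). No other gene of the 64 in the 7 pathway lists had as large a log2 fold change. Lpin2, its paralogue, was not called with all libraries and placed the ethanol libraries around the control mice as Srebf1 did, at 639.7, 798 and 77.5 CPM against 205, 178 and 187 CPM (log2 fold change 1.41, SE 0.694, edgeR, adjusted p = 0.140), and without ethanol replicate 3 it was called, at 1.93.

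On the opposing side of malonyl-CoA use and its control by AMP-activated kinase, 2 of 9 genes were upregulated and 1 was downregulated, beside 10.4% and 13.8% of all genes. Cpt1a, the carnitine palmitoyltransferase that malonyl-CoA inhibits, had a log2 fold change of 1.17 (SE 0.113, edgeR, adjusted p = 0.000426), and 0.51 with library size alone, where it was not called. Prkab1 and Prkaa1, which encode a beta and a catalytic alpha subunit of the kinase, moved apart, at 1.74 (SE 0.202, edgeR, adjusted p = 0.000862) and -1.31 (SE 0.265, edgeR, adjusted p = 0.00719). Of 10 genes of the fasting response, 4 were upregulated and 1 downregulated. Igfbp1, an insulin-repressed secreted binding protein, was at 3400.0, 3835 and 1632 CPM against 222, 229 and 235 CPM (log2 fold change 3.69, SE 0.323, edgeR, adjusted p = 0.000294). Angptl4, an inhibitor of lipoprotein lipase, had a log2 fold change of 1.75 (SE 0.159, edgeR, adjusted p = 0.000342). Cyp4a10, a fatty acid hydroxylase under PPARα, had 1.34 (SE 0.283, edgeR, adjusted p = 0.00833) and Pck1, which encodes a key enzyme of gluconeogenesis, 1.03 (SE 0.275, edgeR, adjusted p = 0.0213). Neither was called with library size alone, at 0.68 (edgeR, adjusted p = 0.0792) for Cyp4a10 and 0.37 (edgeR, adjusted p = 0.315) for Pck1. The call of Pck1 was kept without ethanol replicate 3 and lost without any other single library (adjusted p up to 0.0815), and it was also lost with upper quartile factors (0.93), without a filter (0.996) and with limma-voom (0.95). G6pc1, glucose-6-phosphatase, was the downregulated gene (log2 fold change -2.89, SE 0.496, edgeR, adjusted p = 0.00374). Over the 7 lists together, 11 of 64 genes were upregulated and 5 downregulated, with a median log2 fold change of 0.13, beside 10.4% and 13.8% of all genes. With library size alone these counts were 5 (Lpin1, Igfbp1, Angptl4, Prkab1 and Txnip) and 17, beside 5.06% and 32.2% of all genes under that scaling. Ppargc1a (1.78) and Pnpla3 (1.22) were among the genes called upregulated without ethanol replicate 3 and not with all libraries.

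**Figure D4:**
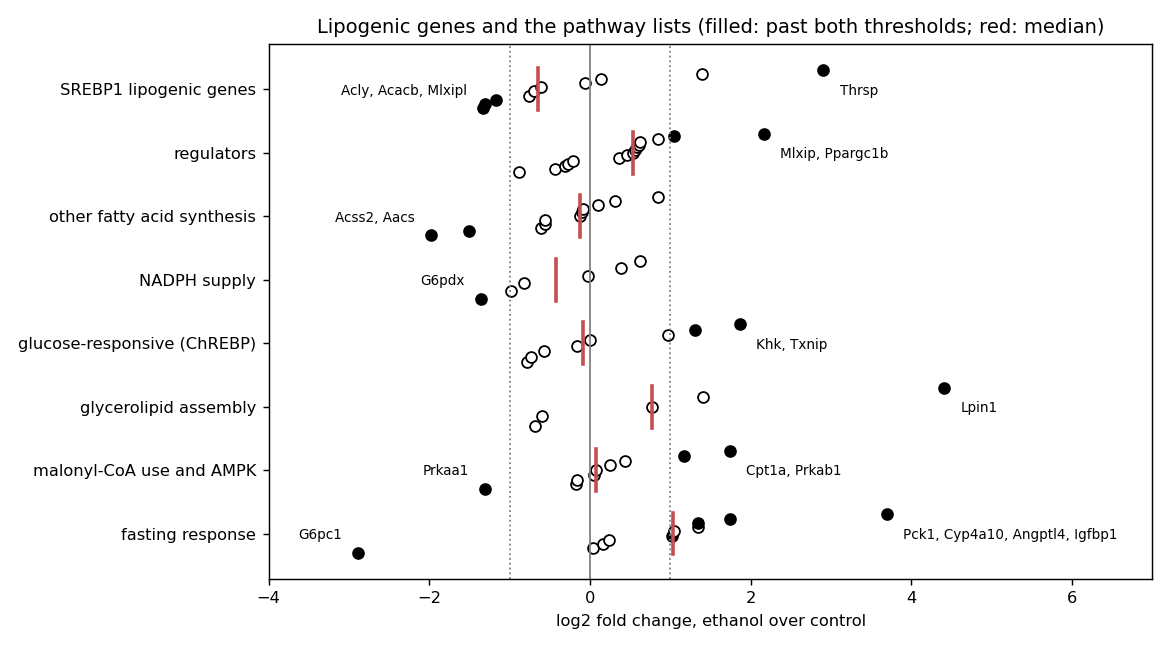
The log2 fold change (ethanol over control) of each gene in the lipogenic set and in the 7 pathway lists, with filled circles for genes past both thresholds, a red bar at the median of each list and dotted lines at the fold threshold. Lpin1 and Igfbp1 lie farthest to the right and G6pc1 farthest to the left.

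The pattern of Srebf1 over the mice was not closely followed by the rest of the lipogenic set. Pearson's correlation of log2 CPM with Srebf1 over the 6 libraries ranged from -0.77 (Acaca) to 0.41 (Thrsp) among the other 9 genes, and was -0.53 for Fasn and 0.09 for Scd1. The libraries share their group and depth, and these values are a description. The genes most like Srebf1 over the 6 libraries, outside the set, were Bcar1, Gm16559, Pxdc1, Rnd1 and Cks2, with correlations of 0.995 to 0.996. Gm16559 was at 26.0, 36.3 and 1.17 CPM in ethanol-exposed mice and at 2.35, 2.32 and 2.76 CPM in control mice, so that ethanol replicates 1 and 2 lay above, and ethanol replicate 3 below, the control mice as for Srebf1. Among the pathway genes, ethanol replicates 1 and 2 shared a position relative to the control range (above, within or below it) that ethanol replicate 3 did not have for 4 of 15 regulators, 5 of 10 fasting genes, 2 of 11 other genes of fatty acid synthesis, 1 of 5 of glycerolipid assembly, 1 of 9 of malonyl-CoA use, 0 of 6 of NADPH supply and 0 of 8 glucose-responsive genes, beside 17.5% of all genes tested. Differences between these lists were not tested.

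**Figure D5:**
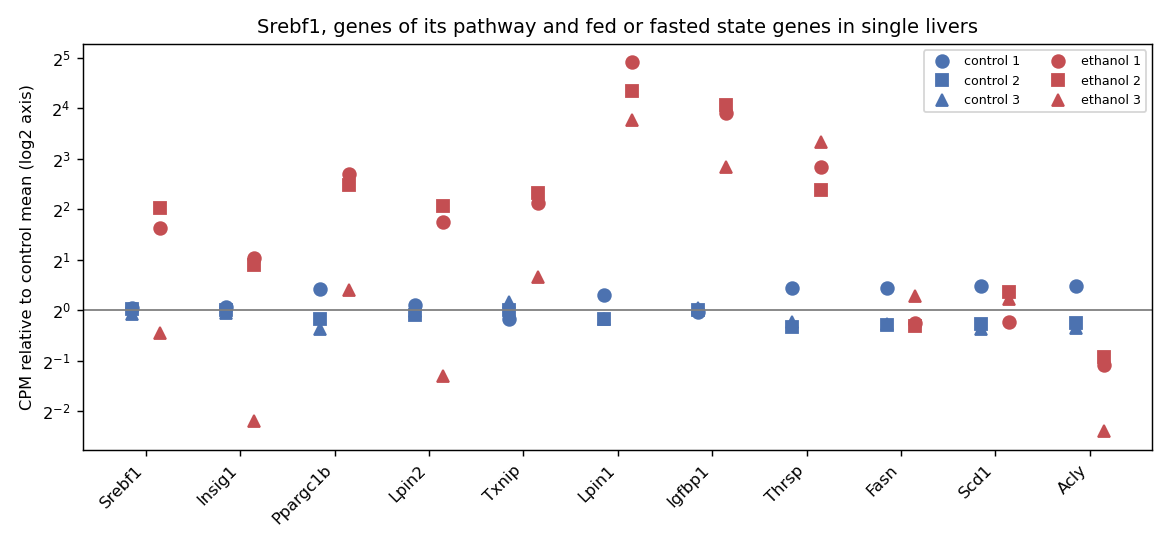
CPM of Srebf1, 6 pathway genes and 4 other lipogenic genes in each liver relative to the control mean, on a log2 axis. For Srebf1, Insig1 and Lpin2 the red triangle, ethanol replicate 3, lies below the control mice while ethanol replicates 1 and 2 lie above, and for Thrsp it is the highest.

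Several genes of the set are also active in fat and other cells, so markers of the cells that a liver sample can hold were set beside these values. The counts of called markers stand beside 10.4% of all genes tested that were upregulated and 13.8% that were downregulated. Hepatocyte markers were abundant in every library, as the liver label states. Of 6, Apoa1 and Cyp2e1 were upregulated, and the summed level was 122100 to 124500 CPM in the ethanol group and 65090 to 76220 CPM in the control group. In FPKM, without TMM factors, the same sum was 41260 to 45200 and 35630 to 41490, and the groups overlapped. Of 6 adipocyte markers, 2 were abundant enough to be tested. Adipoq, Lep and Retn were at 0 in all ethanol libraries and had at most 12, 4 and 4 counts in a control library. The list summed to 4.04 to 5.92 CPM in ethanol-exposed mice against 10.1 to 13.2 CPM in control mice. Most of this sum was Adrb3, which was downregulated (log2 fold change -1.37, SE 0.257, edgeR, adjusted p = 0.00533). Adrb3 was at 3.96, 2.93 and 5.83 CPM in ethanol-exposed mice and 9.97, 11.6 and 11.3 CPM in control mice. Of 5 neutrophil markers, 4 were tested and all 4 (S100a8, S100a9, Cxcr2 and Retnlg) were upregulated, from a sum of 0.118 to 0.401 CPM to one of 2.12 to 12.1 CPM, with ethanol replicate 3 highest. Of 3 erythroid markers, Hba-a1 and Hbb-bs were upregulated, and the sum was 403 to 599 CPM against 142 to 175 CPM. Of 6 Kupffer cell markers, 0 were called, and the sum was 66.8 to 90.3 CPM against 91.4 to 96.2 CPM, or 23.7 to 30.6 FPKM against 49.9 to 52.5 FPKM. Endothelial markers (Lyve1 upregulated, Kdr and Oit3 downregulated, of 6) summed to 70.4 to 129 CPM against 85.5 to 99.9 CPM, and stellate cell markers (Col1a1 downregulated, of 6) to 119.5 to 149 CPM against 105 to 123 CPM. The stellate cell sum lay on the other side in FPKM, at 13.3 to 17.3 against 18.4 to 22.1, with no overlap. Cholangiocyte markers (Sox9 upregulated, of 5) summed to 57.6 to 75.0 CPM against 31.6 to 73.1 CPM, and lymphocyte markers (Ms4a1 downregulated, of 4 tested) to 0.556 to 1.23 CPM against 1.14 to 1.63 CPM. The part of these cell types in the lipogenic values was not tested, and in whole liver fewer cells of a type and less RNA per cell cannot be told apart.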

How the data were processed

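Liver RNA-seq libraries of 3 acute ethanol-exposed and 3 control mice were grouped from their labels, in which all carry the same batch name. The authors deposited whole-number read counts per gene, not normalized, and beside them FPKM values scaled to transcript length and library size. The aligner, the counting software and its use of strand are not given in the sources used here. The submitters' processing notes name GRCm38 and mm10, but of 27049 genes matched by identifier to GENCODE M21 (GRCm38) only 606 (2.24%) have the same start in the deposited table. Gene positions given here are therefore those of GENCODE M21, and start windows are those of RefSeq (GRCm38.p6). In the same table, 1 count column belongs to none of these libraries and was left out, and annotation columns served only for names.

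Counts were tested in R 4.3.3 with edgeR 4.0.16 (filterByExpr, TMM, quasi-likelihood, no covariate), with limma 3.58.1 and DESeq2 1.42.0 as alternatives. The 95% interval of a log2 fold change comes from its SE and the total degrees of freedom of the quasi-likelihood test. These are the residual and the prior ones together, so the interval is narrower than from the residual ones alone. Precision is limited by the 3 mice per group more than by counting error at these depths. No pair of libraries was a duplicate, since chi-square divided by its degrees of freedom was 53.9 to 545 within groups. The edgeR p-values set the difference between groups against the spread between these mice, moderated by that of all genes. On simulated counts edgeR recovered 158 of 200 changed genes among 17189 tested, with 3 false calls. All simulated libraries were drawn from the control means, with the same dispersion for every gene and changes balanced in direction. They held no shift in composition and no library that stood apart, so these figures do not measure recovery or false calls in the real data.

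The genes, lists and ratios were chosen with earlier results of these data known. Named are all genes of the set, the called genes of each list (6 or fewer per list) and the 5 genes most correlated with Srebf1 over the libraries. Genes named beyond this rule were chosen after their values were seen. These are Insig2, Nr1h3, Mbtps1, Scap, Mid1ip1, Pklr, Lpin2, Ppargc1a and Pnpla3, beside Insig1, and the adipocyte markers Adipoq, Lep and Retn. A gene that had been on one of the lists is not reported here and is in none of the list counts. The alternatives were other scalings, filters, pseudocounts, tests and thresholds, the replicate number as a block, and each library left out in turn. Tables were joined in Python 3.11.15 with pandas 2.3.3.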

Additional observations from a re-analysis of the deposited data

How the results depend on the processing

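Thrsp and Acacb kept their calls under all 18 alternatives. Mlxipl lost its call under 1 (length trend removed) and Acly under 6. Over all genes, 1738 were higher and 2301 lower. With library size alone the counts were 846 and 5383, and with limma on log2(FPKM + 0.1) 752 and 4965. Limma on log2(FPKM + 1) gave 408 higher, and 379 higher when its own filter was left out. With the adjusted p alone the counts were 3598 and 3591. Genes of the set called lower numbered 6 with library size alone and with limma on log2(FPKM + 0.1), 5 with limma on log2(FPKM + 1) with or without a filter and with the adjusted p alone, and 1 with the length trend removed. Pathway genes called higher and lower numbered 5 and 17 with library size alone and 4 and 18 with limma on log2(FPKM + 0.1). Limma on log2(FPKM + 1) gave 3 and 15, and 3 and 14 when its own filter was left out. With the adjusted p alone there were 22 and 13. When single libraries were left out, 1 to 2 genes of the set were called higher and 2 to 3 lower, with Srebf1 the gene added without ethanol replicate 3. Over all genes these were 1490 to 1920 higher and 1713 to 2903 lower, and over pathway genes 8 to 15 and 4 to 7.

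The sign of Fasn was reversed with the length trend removed (0.12), without ethanol replicate 1 (0.01), ethanol replicate 2 (0.04) or control replicate 1 (0.21), and its log2 fold change ranged from -0.27 to 0.21 with single libraries left out. Scd1 was reversed with library size alone (-0.53), in the 3 limma settings on log2 FPKM (-0.50; limma-voom on the counts gave 0.17) and without control replicate 3 (-0.023), and ranged from -0.023 to 0.45 with single libraries left out. Scd1 to Fasn was -0.0076 without ethanol replicate 2 and 0.35 without ethanol replicate 3, the range over libraries left out. The cause of these shifts was not tested.

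Samples with the same number did not deviate together (correlations -0.05 to -0.01 over the 3 pairs), so the numbers were not taken to pair them. With the replicate number as a block, 1518 genes were higher and 2000 lower, and 1 and 3 genes of the set and 10 and 5 pathway genes were called. No ethanol library correlated best with the control library of its own number.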
